A study of Mus musculus with 9 samples.

Results

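The inhibitory receptors of myeloid cells, 8 genes in all, were followed by RNA sequencing through the release and return of a hairpin against the transcription factor PU.1 in mouse leukaemia cells. The 8 genes are Sirpa, Pirb, Lilrb4a, Siglece, Cd33, Cd300a, Cd300lf and Pilra, chosen by symbol as members of the class of receptors that carry an immunoreceptor tyrosine-based inhibitory motif (ITIM), out of 27179 gene entries counted in each library. All 8 were found by their Entrez identifiers in every library, and 6 had enough counts to be tested. Of those, 5 (Sirpa, Pirb, Lilrb4a, Cd33 and Cd300lf) rose when the hairpin was switched off and fell when it was switched on again. Among all tested genes, 6.57% were called higher with the hairpin off and 6.02% lower when it was on again. Pirb, Cd33 and Cd300lf passed the filter on low counts only through the libraries with the hairpin off. The calls depended on the clones: with the hairpin off, 2 of 6 were called without clone 2 and 0 of 6 without clone 4. Calls over all genes fell too. Cd300a was 1.89-fold higher with the hairpin off and narrowly missed the threshold, and Siglece and Pilra gave at most 4 counts in any library.

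The cells were AML246, a C57BL/6 acute myeloid leukaemia line described as p53-/- with the hairpin shPU.1, cultured in medium with IL3. Clones 1, 2 and 4 were each grown from 1 sorted cell, and each clone gave 1 library in each of 3 groups, so all 9 libraries share the p53-/- background, the hairpin construct and the IL3 medium. Untreated cells were GFPhigh; Dox cells had 14 days of doxycycline and were GFPoff; Wash cells had 14 days of doxycycline, a wash and then 14 days without it, and were GFPhigh again. In the text these are called untreated, doxycycline and washed. Doxycycline, the GFP gate and the state of the hairpin changed together, so their parts cannot be told apart, and the clones come from 1 line, so p-values measure the spread between its clones. The promoter that drives the hairpin and how p53 was lost are not stated in the labels.

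The hairpin's target was checked first. Spi1, the gene of PU.1, had 48.1, 46.6 and 23.7 CPM (counts scaled to library size) in untreated clones 1, 2 and 4, 197, 191 and 156 CPM with doxycycline and 52.0, 40.6 and 23.9 CPM after the wash. Spi1 was highest in the doxycycline library of every clone, the one labelled GFPoff. Library totals ran from 7408118 to 9803258 counts, so 3 counts, the level a count of 0 allows, came to 0.265 to 0.550 CPM. Untreated clone 1 stood apart: 22.0% of its counts lay on 1 entry without a symbol, against 0.153% to 1.64% elsewhere, and its TMM scaling factor was 0.736 against 0.916 to 1.18. Among 12 markers of myeloid identity, a list that holds Cd33 and Spi1, 12 were counted, with summed levels of 2095 to 2441 CPM in untreated, 2969 to 4201 CPM in doxycycline and 2029 to 4307 CPM in washed libraries. Of these markers Ptprc, the gene of the pan-leukocyte antigen CD45, was at only 1.55 ± 0.521 CPM (SD, n = 3) in untreated cells and 0.623 ± 0.124 CPM in washed cells, against 38.4 ± 9.15 CPM with doxycycline. Of the 12 markers 5 rose and 0 fell with doxycycline (6 and 3 with the clone as a block). Of all tested genes 6.57% rose and 4.35% fell (13% and 11.7% with the block). Ptprc and Cd33 passed the filter on low counts only through their doxycycline libraries, and of the other 10 markers 3 rose, Spi1 among them. The 3 that fell with the block were the granule protease and peroxidase genes Mpo (71.1 to 9.88 CPM), Elane (41.8 to 9.95 CPM) and Ctsg (177 to 58.1 CPM).

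Inhibitory receptors of this class sit on the surface of myeloid cells and restrain activating signals. When a ligand is bound, kinases of the Src family phosphorylate the tyrosine of the ITIM, and the phosphatases SHP-1, SHP-2 or SHIP-1 dock there and dampen phagocytosis, degranulation or cytokine signalling. Many of the receptors are paired with activating relatives from the same gene cluster, which lack the motif and signal through adaptors such as DAP12. SIRPα binds the "don't eat me" signal CD47, PIR-B binds MHC class I, Siglec-E and CD33 bind sialic acid, and CD300a and CD300lf bind lipids such as those exposed on dying cells.

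The motif itself was looked for in the coding sequence of each receptor (GENCODE M21 transcripts, GRCm38), because the class is defined by it. The pattern was a tyrosine with Ile, Ser, Val or Leu at the second residue before it and Ile, Leu or Val at the third residue after it, searched for in the tail predicted to lie inside the cell. It occurred 14 times in 7 receptors: 3 times each in Sirpa and Pirb, 2 times each in Lilrb4a, Cd300a and Cd300lf, and 1 time each in Siglece and Pilra. In Cd33 it was not found in the 135 codons of the predicted tail, so Cd33 does not meet this written form of the motif. In 12 of the 14 sites the residue after the tyrosine was alanine; the exceptions were both sites of Cd300a. The following sites show the 18 coding bases of the motif, 5′ to 3′ on the coding strand, with the tyrosine codon in capitals; they were picked to show the closest matches between receptors and 1 site of each of the others.
Sirpa codon 440 (chr2:129629954-129629971, plus strand): atcacaTACgcagacctg
Sirpa codon 481 (chr2:129630077-129630094, plus strand): ctcaccTATgctgacctg
Cd300lf codon 241 (chr11:115117648-115117665, minus strand): ctctgtTATgcagacctg
Pirb codon 794 (chr7:3712786-3712803, minus strand): gtgaccTATgcccagctg
Lilrb4a codon 322 (chr10:51496194-51496211, plus strand): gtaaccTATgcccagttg
Cd300a codon 262 (chr11:114899846-114899863, plus strand): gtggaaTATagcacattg
Siglece codon 432 (chr7:43651585-43651602, minus strand): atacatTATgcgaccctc
Pilra codon 267 (chr5:137823571-137823588, minus strand): atcgtgTATgcttccatc
Over the 91 pairs of sites, Pirb codon 794 and Lilrb4a codon 322 were the most alike, with 16 of 18 bases identical. Sirpa codon 481 and Cd300lf codon 241 shared 14 of 18 bases, as many as Sirpa codons 440 and 481 shared with each other. Pairs from different receptors shared between 6 and 16 bases.

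Sirpa lies at chr2:129591042-129632228 (GRCm38, as are all positions below) and encodes SIRPα, the receptor for CD47 that restrains phagocytosis. Its level was 122, 134 and 115 CPM in untreated clones 1, 2 and 4, 371, 500 and 419 CPM with doxycycline and 119, 121 and 106 CPM after the wash. The 3 doxycycline values stood far above all others, and the washed values overlapped the untreated ones. The log2 fold change with doxycycline was 1.79 ± 0.17 (SE; edgeR adjusted p = 0.00124), and after the wash it was -1.90 ± 0.17 against doxycycline (edgeR adjusted p = 0.00118). Sirpa had the most even response of the tested receptors: the ratio of doxycycline to untreated was 3.04, 3.72 and 3.62 in clones 1, 2 and 4.

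Pirb and Lilrb4a belong to the leukocyte immunoglobulin-like receptors. Pirb (chr7:3712505-3720382) encodes PIR-B, a receptor for MHC class I. It had 8, 8 and 1 counts in untreated clones 1, 2 and 4, 73, 370 and 335 counts with doxycycline and 9, 5 and 6 counts after the wash. In CPM these were 1.47, 1.01 and 0.124 untreated, 6.44, 49.0 and 32.5 with doxycycline, and 0.828, 0.613 and 0.734 after the wash. Pirb was thus near the counting floor in all 6 GFPhigh libraries and above it in all 3 doxycycline libraries, with doxycycline clone 1 the lowest of those. The log2 fold change was 5.12 ± 0.86 with doxycycline (edgeR adjusted p = 0.00811) and -5.30 ± 0.85 after the wash (edgeR adjusted p = 0.00742). Within clones the ratio of doxycycline to untreated was 4.39 in clone 1 and 48.6 in clone 2. In clone 4 it was 263 from a single untreated count, with a 95% interval of 46.8 to 10411 (this and the intervals of ratios below cover counting error only).

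Lilrb4a (chr10:51490898-51496613) encodes gp49B, an inhibitory receptor of mast cells, neutrophils and macrophages. It was at 36.3, 29.2 and 47.3 CPM in untreated clones 1, 2 and 4, 133, 426 and 454 CPM with doxycycline and 12.6, 33.6 and 45.9 CPM after the wash. All doxycycline values exceeded all others, and clone 1 was lowest both with doxycycline and after the wash. The log2 fold change was 3.16 ± 0.56 with doxycycline (edgeR adjusted p = 0.0104) and -3.46 ± 0.57 after the wash (edgeR adjusted p = 0.00803). In clones 2 and 4 the washed level was 1.15 and 0.970 times the untreated one, whereas in clone 1 it was 0.347 times (95% counting interval 0.277 to 0.434).

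Cd300lf and Cd300a lie in 1 cluster on chromosome 11. Cd300lf (chr11:115116214-115135372) encodes a lipid-binding receptor also known as CLM-1. It had 1, 4 and 1 counts in untreated clones 1, 2 and 4, 419, 384 and 570 counts with doxycycline and 3, 2 and 9 counts after the wash. In CPM this was 0.183, 0.504 and 0.124 untreated, 37.0, 50.8 and 55.2 with doxycycline, and 0.276, 0.245 and 1.10 after the wash. Cd300lf went from at most 4 reads to at least 384 in every clone and back to at most 9, and the groups on either side of doxycycline overlapped each other. Its log2 fold change of 7.35 ± 0.60 (edgeR adjusted p = 0.000865), a 163-fold difference with a 95% interval of 64.5 to 413, was the 14th largest in absolute size of the 12004 genes tested. This size rests on at most 4 counts per untreated library, and Cd300lf passed the filter on low counts only through its doxycycline libraries. After the wash the log2 fold change was -6.47 ± 0.54 (edgeR adjusted p = 0.00118).

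Cd300a (chr11:114889152-114901946) encodes a receptor for phospholipids exposed on dying cells. It was at 42.2, 35.1 and 39.2 CPM in untreated clones 1, 2 and 4, 93.3, 46.3 and 80.4 CPM with doxycycline and 44.5, 34.1 and 44.8 CPM after the wash. The doxycycline values did not overlap the others, but doxycycline clone 2 lay just above the highest washed value. The log2 fold change was 0.92 ± 0.26 with doxycycline, with an edgeR adjusted p of 0.05003 that lay just above the threshold of 0.05, and -0.84 ± 0.25 after the wash (edgeR adjusted p = 0.0722). With the clone as a block, Cd300a passed in both directions (edgeR adjusted p = 0.00974 and 0.0132). The ratio of doxycycline to untreated was 2.21, 1.32 and 2.05 in clones 1, 2 and 4.

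Cd33 (chr7:43527399-43537424) and Siglece (chr7:43648882-43672044) are sialic acid-binding lectins of the CD33-related Siglec cluster. Cd33 had 1, 2 and 2 counts in untreated clones 1, 2 and 4, 76, 20 and 107 counts with doxycycline and 5, 1 and 0 counts after the wash. In CPM it was 0.183, 0.252 and 0.247 untreated, 6.71, 2.65 and 10.4 with doxycycline, and 0.460, 0.123 and 0 after the wash. Cd33 was detectable above the floor only with doxycycline, apart from washed clone 1, and was lowest there in clone 2. The log2 fold change was 4.75 ± 0.83 with doxycycline (edgeR adjusted p = 0.00979) and -4.87 ± 0.81 after the wash (edgeR adjusted p = 0.00827). In clone 4 the doxycycline level was at least 28.2-fold higher than the 3-count floor of the washed library.

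Siglece, which encodes Siglec-E, an inhibitory lectin of neutrophils and macrophages, had 1, 1 and 2 counts untreated, 0, 4 and 2 counts with doxycycline and 0 counts in all 3 washed libraries. Pilra (chr5:137821952-137836278), which encodes an inhibitory receptor for sialylated proteins, had 4, 2 and 0 counts untreated, 4, 1 and 1 with doxycycline and 1, 1 and 1 after the wash. Both failed the filter on low counts. In a fit with no filter neither passed in any comparison; the smallest unadjusted p was 0.0423, for Siglece in washed against doxycycline (edgeR adjusted p = 0.235). Both hold the ITIM shown above and lie beside relatives that were counted far more often with doxycycline, as described below.

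**Figure D1:**
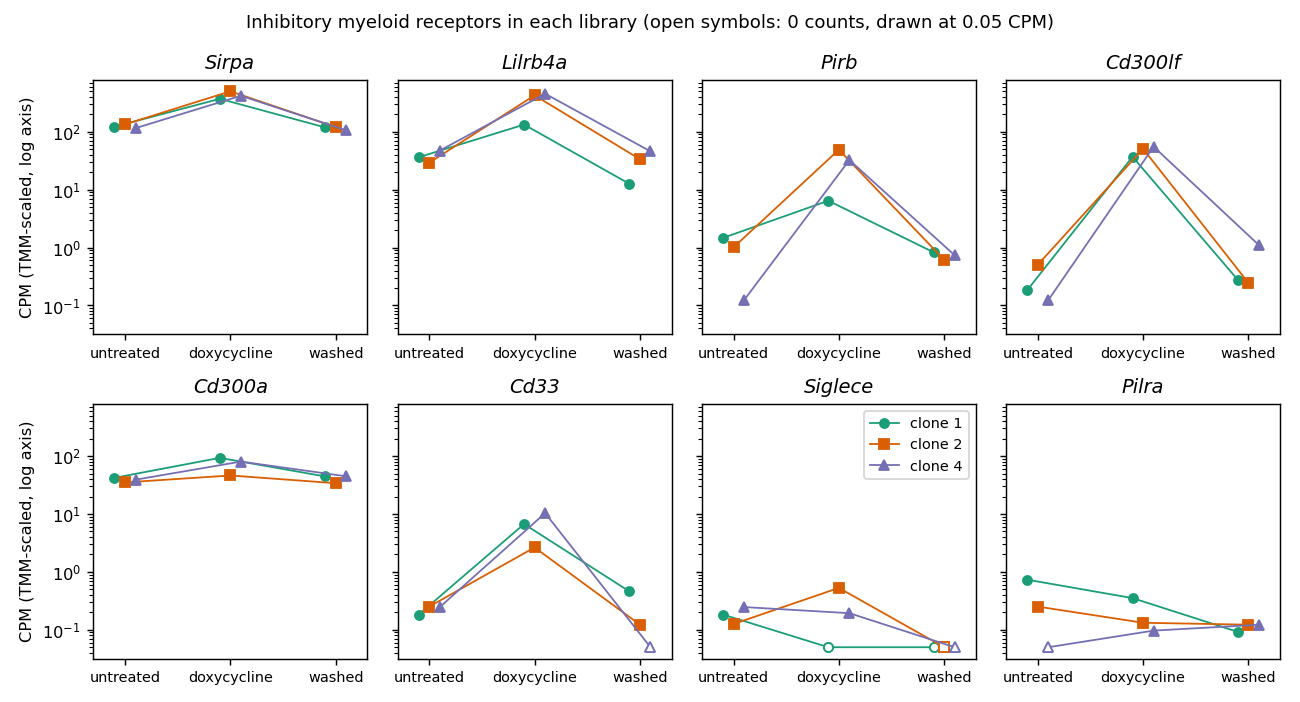
Level of each receptor in CPM (log axis) in the 3 groups, with 1 line per clone; open symbols mark libraries with 0 counts, drawn at 0.05 CPM. In the panels of Sirpa, Lilrb4a, Pirb, Cd300lf, Cd300a and Cd33 every clone peaks with doxycycline, while Siglece and Pilra stay below 1 CPM throughout. How many of all genes peak in this way was not counted.

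Across the class, 5 of the 6 tested receptors were higher with doxycycline and 0 were lower, where 6.57% of all 12004 tested genes were called higher and 4.35% lower. Pirb, Cd33 and Cd300lf, 3 of the 6, passed the filter on low counts only through their doxycycline libraries, so their passing the filter and their difference are not separate facts; Sirpa, Lilrb4a and Cd300a would have passed without those libraries, and 2 of these 3 were called higher. After the wash 5 of 6 were lower than with doxycycline and 0 were higher, beside 6.02% of all genes called lower and 3.64% called higher. Both comparisons share the doxycycline libraries. With the clone as a block, all 6 tested receptors were higher with doxycycline and all 6 were lower after the wash, where 13% of all genes were called higher and 11.7% lower with doxycycline, and 12.4% lower and 10.4% higher after the wash. The counts changed with the clones in the fit: without clone 2 they were 2 and 2 of 6, and without clone 4 they were 0 and 1 of 6, where 5 of 6 kept an unadjusted p below 0.05 in each comparison; with the block and clone 2 left out they were 5 and 4, and with the block and clone 4 left out 4 and 4. The calls over all genes fell too, from 1311 to 159 without clone 2 and to 0 without clone 4 with doxycycline, and from 1160 to 70 and 4 after the wash. With the block and clone 2 left out, 5.16% of all genes were called with doxycycline and 3.49% after the wash. With the block and clone 4 left out, these shares were 2.98% and 2.65%. Leaving out 1 clone each time, the log2 fold change with doxycycline was 1.73 to 1.88 for Sirpa, 2.81 to 3.52 for Lilrb4a, 4.48 to 6.14 for Pirb, 4.30 to 5.19 for Cd33, 0.77 to 1.09 for Cd300a and 6.85 to 8.15 for Cd300lf. Without the untreated clone 1 library, 3 of 6 (Sirpa, Pirb and Cd300lf) were called higher with doxycycline and, with the block, 6 of 6. Of all genes, 2.82% and, with the block, 19.6% were then called in either direction. In bulk RNA, a larger share of cells expressing a receptor and more RNA per cell cannot be told apart.

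**Figure D2:**
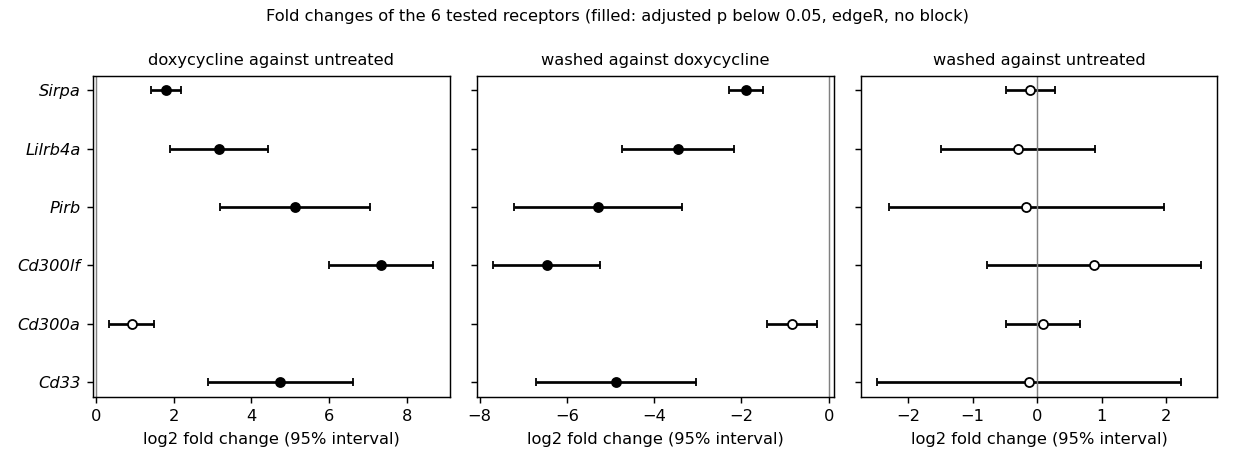
Log2 fold change of the 6 tested receptors in the 3 comparisons; points are edgeR estimates, bars 95% intervals, and filled points have an adjusted p below 0.05. Doxycycline shifts the receptors up and the wash shifts them down by similar amounts, and in the comparison of washed with untreated all 6 intervals cross 0.

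At 14 days after the wash, 0 of the 6 receptors differed from untreated cells, as did 0% of all genes by edgeR, with or without the block. At an unadjusted p below 0.05, 0 of the 6 receptors and 38 of all 12004 genes (0.317%) differed (0 and 98 with the block). Both gene counts lie well below a share of 0.05, which p-values give when nothing differs. The comparison was thus conservative, and 0 calls do not show equal levels. DESeq2 and limma voom also called 0 genes. The intervals differ in width with the counts behind them. For Sirpa the log2 fold change was -0.11 (95% interval -0.49 to 0.27) and for Cd300a it was 0.08 (-0.49 to 0.66). For Cd300lf it was 0.88 (-0.78 to 2.54), and for Pirb and Cd33 the intervals reached from -2.30 to 1.96 and from -2.48 to 2.24, so differences of several fold could not be detected for these 3 genes. Washed clone 4 had the highest Cd300lf of the GFPhigh libraries, with 9 counts.

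Differences between clones were tested next. Lilrb4a and Cd300a differed most between clones over the 3 groups (edgeR unadjusted p = 0.0204 and 0.0281; adjusted p = 0.0889 and 0.101), and 0 of 6 receptors and 0% of all genes passed, although 4501 of 12004 genes (37.5%) had an unadjusted p below 0.05. For the difference in response between clones, Pirb had the smallest unadjusted p of the receptors, 0.0143 (edgeR adjusted p = 1); again 0 of 6 receptors and 0% of all genes passed, and 407 genes (3.39%) had an unadjusted p below 0.05. The receptors did not share 1 ranking of clones: with doxycycline clone 1 was lowest for Sirpa, Pirb, Lilrb4a and Cd300lf, and clone 2 was lowest for Cd300a and Cd33.

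Levels of different receptors were compared as CPM per kilobase of gene model. With doxycycline, Lilrb4a was at 238 ± 125 CPM per kb (SD, n = 3) and Sirpa at 102 ± 15.4, with overlapping libraries. Below both without overlap, Cd300lf followed at 25.3 ± 5.06, Cd300a at 15.8 ± 5.24 and Pirb at 10.7 ± 7.86 CPM per kb, and each of these overlapped the next. Cd33 was at 2.56 ± 1.503 CPM per kb, and 2 of its libraries exceeded the lowest Pirb library. Siglece and Pilra were last, at 0.130 and 0.0750 CPM per kb. In untreated cells the order was different: Sirpa (29.3 CPM per kb) and Lilrb4a (26.5) led, with overlapping libraries, Cd300a followed at 8.36, and the other 5 were all below 0.6 CPM per kb in every library. Cd300lf therefore stood beside Pirb, Cd33, Siglece and Pilra in untreated cells and above Cd300a in mean level with doxycycline.

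**Figure D3:**
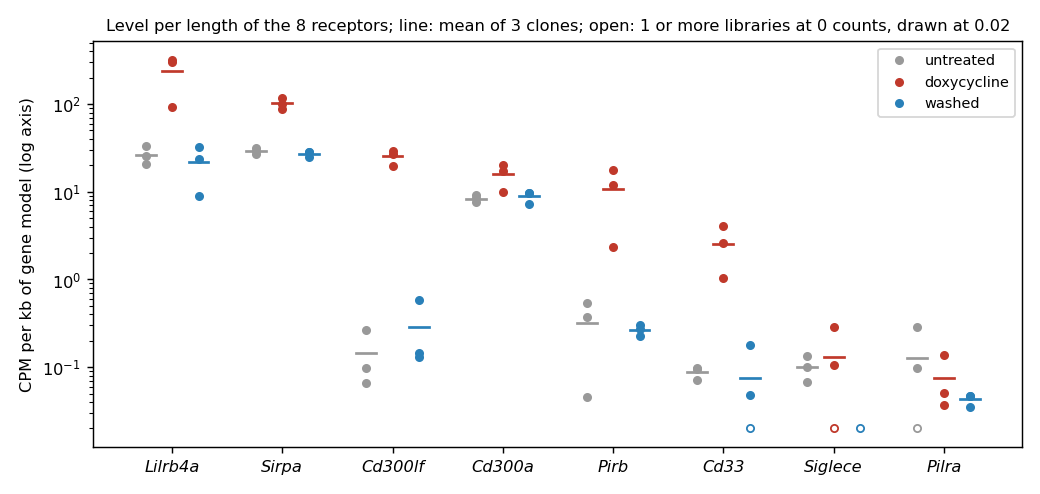
Level of the 8 receptors in CPM per kb of gene model (log axis), 1 point per library and a line at the mean of the 3 clones; open points stand for 1 or more libraries with 0 counts, drawn at 0.02. The receptors fall into those already present in untreated cells (Sirpa, Lilrb4a, Cd300a), those counted mainly with doxycycline (Cd300lf, Pirb, Cd33) and those barely counted at all (Siglece, Pilra).

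Most of the receptors lie among close relatives, which were chosen for description after their values had been seen. Next to Lilrb4a lies Lilr4b, a near copy encoding gp49A, at 22.8 ± 1.61 CPM (SD, n = 3) untreated, 174 ± 109 CPM with doxycycline and 17.6 ± 11.2 CPM after the wash (log2 fold change with doxycycline 2.93, edgeR adjusted p = 0.0252). Lilrb4a took between 54.6% and 72.5% of the reads of the pair in every library. Reads of near copies can be shared between them, so the values of Lilrb4a, Pirb and their copies are uncertain to that extent. Near Pirb, the activating relative Lilra6 had 0 counts in all 6 GFPhigh libraries and 14, 206 and 153 counts in doxycycline clones 1, 2 and 4, at least 2.24-, 72.1- and 40.01-fold higher than the 3-count floor of the untreated libraries (edgeR adjusted p = 0.0424). Pira1 had 8, 57 and 53 counts and Pira2 had 9, 68 and 57 counts with doxycycline in those clones, against at most 1 count in any other library. Like Pirb, Lilra6 passed the filter on low counts only through its doxycycline libraries, as did Cd300ld and Siglecf described next, so that their p-values are no separate support. Clone 1 was the lowest doxycycline library for Lilr4b, Lilra6, Pira1 and Pira2, as it was for Pirb. For Cd300ld and Siglecf it was the highest.

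In the Cd300 cluster, Cd300ld, an activating relative, had 0 counts in all GFPhigh libraries and 140, 44 and 79 counts with doxycycline, at least 22.4-, 15.4- and 20.7-fold higher than the untreated floor in clones 1, 2 and 4 (edgeR adjusted p = 0.00664). Cd300lb, another activating relative, was at 50.5 ± 13.5 CPM untreated and 71.7 ± 20.0 CPM with doxycycline (edgeR adjusted p = 0.380). Cd300ld2, Cd300ld4 and Cd300ld5, which lie between Cd300a and Cd300lf, had 0 counts in every library. Genes of 1 cluster therefore ranged from no counts at all to the 1058 counts of Cd300a in doxycycline clone 1. Beside the barely counted Pilra, its activating partner Pilrb1 was at 18.4 ± 2.35 CPM untreated, 65.1 ± 9.61 CPM with doxycycline and 21.5 ± 3.86 CPM after the wash (edgeR adjusted p = 0.00180 with doxycycline). In the Siglec cluster, Siglecf, the eosinophil Siglec, was at 0.719 ± 0.493 CPM untreated, 27.5 ± 18.6 CPM with doxycycline and 1.83 ± 2.03 CPM after the wash (edgeR adjusted p = 0.00941), beside the barely counted Siglece.

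**Figure D4:**
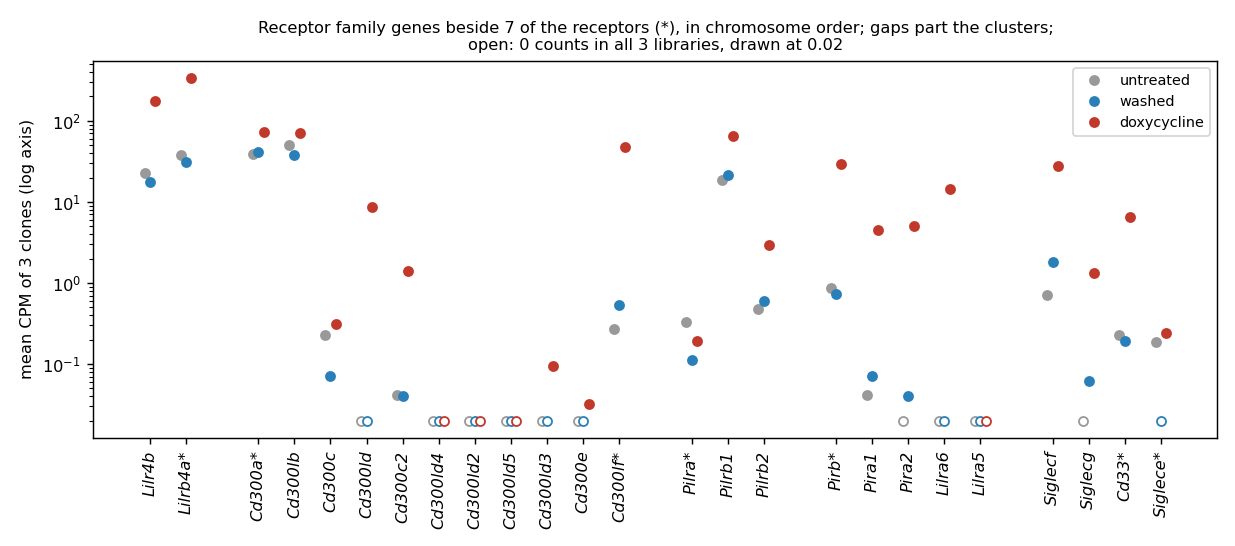
Mean level in CPM over 3 clones (log axis) of relatives lying near 7 of the receptors (marked with an asterisk), in chromosome order; open points are genes with 0 counts in all 3 libraries of a group, drawn at 0.02. In the Cd300, Pilr, Pir and Siglec clusters some genes have their highest mean with doxycycline and others are hardly counted, while both genes of the Lilrb4a pair are counted in every group.

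Other parts of the pathway were read from gene lists, whose counts stand beside the same 6.57% of all genes called higher and 4.35% called lower with doxycycline (13% and 11.7% with the block). Lilr4b and Lilra6, described above, are not in the counts of these lists. Of 17 other inhibitory receptors matched, 9 were tested, 4 rose with doxycycline (5 with the block) and 0 fell; Siglecf passed the filter only through its doxycycline libraries, and of the other 8, 3 rose. Ceacam1, an ITIM-bearing adhesion receptor, went from 7.85 ± 0.764 to 62.7 ± 10.24 CPM (edgeR adjusted p = 0.00120). Fcgr2b, the inhibitory receptor for IgG, went from 109 ± 26.2 to 424 ± 25.8 CPM (edgeR adjusted p = 0.00785), and Clec12a, an inhibitory lectin, from 5.38 ± 2.73 to 104 ± 97.3 CPM (edgeR adjusted p = 0.02001). The fourth was Siglecf. Among those that did not pass, Pecam1, an abundant ITIM-bearing receptor of adhesion, was at 800 ± 25.8 and 863 ± 77.5 CPM. Of 19 activating partners and adaptors matched, 9 were tested, 7 rose and 0 fell with doxycycline. After the wash 5 were lower (8 with the block), where 6.02% of all genes were called lower (12.4% with the block). Both comparisons use the same doxycycline libraries. Of the 9 tested, Cd300ld, Pilrb2, Trem1 and Trem3 passed the filter on low counts only through those libraries. Of the other 5, 3 rose with doxycycline. Tyrobp, the adaptor DAP12 that carries signals of activating partners, went from 60.7 ± 35.8 to 361 ± 30.1 CPM (edgeR adjusted p = 0.00806), and Hcst, the adaptor DAP10, from 5.75 ± 2.58 to 25.05 ± 4.58 CPM (edgeR adjusted p = 0.00925). Fcer1g, the adaptor of PIR-A, was at 301 ± 28.7 and 354 ± 38.7 CPM and did not pass (edgeR adjusted p = 0.491).

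Of 12 effectors that dock on ITIMs or act beside them, all tested, 3 rose and 0 fell with doxycycline, and the median log2 fold change was 0.37. Ptpn6, the phosphatase SHP-1, went from 86.6 ± 0.166 to 152 ± 11.3 CPM and was at 81.0 ± 5.07 CPM after the wash (edgeR adjusted p = 0.00924 with doxycycline). The adaptors Dok2 and Dok3 went from 9.55 ± 1.60 to 26.6 ± 2.64 CPM and from 49.9 ± 7.45 to 113 ± 25.6 CPM (edgeR adjusted p = 0.00925 and 0.0101). The other phosphatases did not pass: Ptpn11 (SHP-2) was at 205 ± 14.5 and 222 ± 13.3 CPM and Inpp5d (SHIP-1) at 281 ± 2.09 and 294 ± 16.7 CPM. Of 9 kinases able to phosphorylate such motifs, 7 were tested, 1 rose and 1 fell. Lyn, a Src-family kinase of myeloid cells, went from 36.9 ± 4.68 to 79.2 ± 9.77 CPM (edgeR adjusted p = 0.0120), and Src fell from 15.5 ± 6.39 to 1.61 ± 1.59 CPM (edgeR adjusted p = 0.0481).

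Of 9 ligands of the receptors matched, 7 were tested and by edgeR 0 passed with doxycycline (Apoe was lower with the block, adjusted p = 0.0283). Cd47, the ligand of SIRPα, was at 244 ± 14.0 CPM untreated and 285 ± 39.4 CPM with doxycycline, and B2m, the light chain of the MHC class I ligands of PIR-B, at 975 ± 106 and 1800 ± 293 CPM (edgeR adjusted p = 0.443 and 0.230). Of 15 genes that make, transfer or remove sialic acid, the ligand of the Siglecs, 13 were tested, 3 rose and 1 fell. The sialyltransferases St3gal4, St3gal3 and St3gal1 went from 75.8 ± 6.13 to 137 ± 11.1, from 19.9 ± 0.331 to 39.5 ± 8.08 and from 57.6 ± 6.89 to 171 ± 76.1 CPM (edgeR adjusted p = 0.0208, 0.0282 and 0.0363), and St3gal6 fell from 1.68 ± 0.368 to 0.165 ± 0.0884 CPM (edgeR adjusted p = 0.0485). With the block, 5 of these 13 genes rose and 1 fell. Without clone 4, 0 genes of these lists passed, as 0 of all 12069 genes then tested did (1608 had an unadjusted p below 0.05); without clone 2, 1 other inhibitory receptor, 2 activating partners and 0 genes of the remaining lists passed. Without the untreated clone 1 library, 3 other inhibitory receptors, 4 activating partners, 0 effectors, 0 kinases and 0 sialic acid genes passed. The share of all genes that passed was 1.32% without clone 2 and 2.82% without the untreated clone 1 library.

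**Figure D5:**
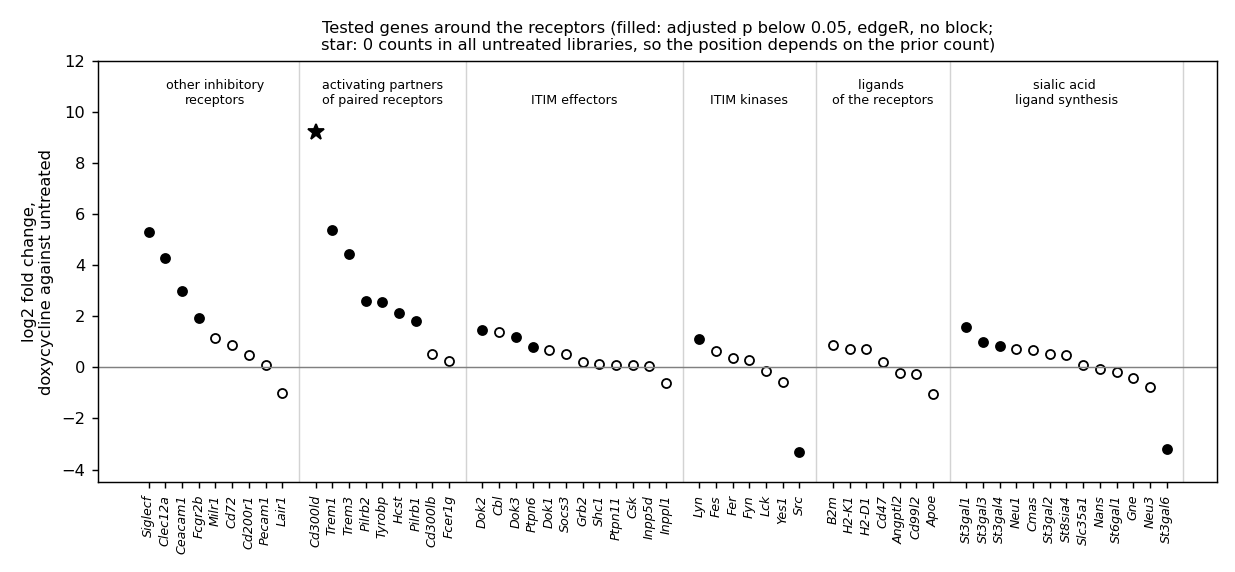
Log2 fold change, doxycycline against untreated, of each tested gene of the 6 pathway lists, sorted within a list; filled points have an adjusted p below 0.05 (edgeR, no block), and the star marks Cd300ld, whose untreated libraries all had 0 counts, so that its position depends on the prior count. Filled points lie above 0 in the receptor and adaptor lists, and the ligand list has no filled point.

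Promoter windows from the RefSeq table (GRCm38.p6), reaching from 250 bases before to 50 after the start, were matched for 6 of the 8 receptors, and Sirpa and Lilrb4a had no entry. The windows of Cd33, Siglece, Cd300a and Cd300lf lay inside the gene spans given above, and any start further out was not searched. PU.1 binds sequences with the core GAGGAA, so this was searched for on both strands, together with the longer GAGGAAGT, which contains it. GAGGAA was in 28.28% of all 32851 windows and GAGGAAGT in 3.20%. All 6 receptor windows held GAGGAA, among them those of Siglece and Pilra, and GAGGAAGT was in those of Pirb and, beginning at the start base itself and so outside the stretch shown, Cd300lf. The Pirb and Cd300lf sequences are shown because these receptors had the largest fold changes; capitals mark GAGGAA or its reverse complement TTCCTC, and both stretches end before the start.
Pirb (chr7:3720383-3720632, minus strand): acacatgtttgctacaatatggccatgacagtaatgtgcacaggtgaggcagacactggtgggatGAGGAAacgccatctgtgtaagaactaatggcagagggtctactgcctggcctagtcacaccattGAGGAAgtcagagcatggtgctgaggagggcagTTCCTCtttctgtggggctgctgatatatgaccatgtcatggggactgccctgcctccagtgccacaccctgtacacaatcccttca
Cd300lf (chr11:115134000-115134065, minus strand): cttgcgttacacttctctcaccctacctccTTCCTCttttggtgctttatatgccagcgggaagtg
In Pirb the matches begin 185, 120 and 87 bases before the start, and the one at 120 is GAGGAAGT; in Cd300lf the match shown begins 43 bases before the start. A match of letters does not show that PU.1 was bound there, and binding was not measured.

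The genes with the profile most like each receptor over the 9 libraries, by Pearson's r of log2 CPM, were listed as a description; all share the same libraries. For Sirpa they were Mtmr3 (r = 0.996), Stat3 (0.992) and Cap1 (0.991), and for Cd300lf Kdm3b (0.994), Stat3 (0.990) and Tmem63a (0.989). Stat3, a transcription factor of cytokine signalling, was thus near both; it was at 98.2 CPM untreated, 229 CPM with doxycycline and 97.2 CPM after the wash. For Pirb they were Treml2 (0.978), Etnk1 (0.970) and its relative Lilra6 (0.967), and for Lilrb4a Gas7 (0.988), Plekhb2 (0.985) and C1rl (0.984). For Cd33 they were Lrrc8d (0.982), 1700025G04Rik (0.975) and Bst1 (0.975), and for Cd300a Clcc1 (0.971), Alg1 (0.970) and Rabif (0.966). Between the 6 receptors themselves r ran from 0.626, for Lilrb4a with Cd300a, to 0.971, for Sirpa with Cd300lf.

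Markers of other cells were read beside these results. Markers of mast cells, basophils and eosinophils, mainly Epx, summed to 8292 to 12340 CPM in untreated, 3285 to 4871 CPM in doxycycline and 8244 to 10910 CPM in washed libraries, with all 8 markers counted. Of the 6 tested, 2 (Epx and Cma1) were lower with doxycycline and 0 were higher, with or without the block. Of all genes 4.35% were called lower and 6.57% higher (11.7% and 13% with the block). Mcpt8 was at 27.3 ± 26.1 CPM untreated and 72.0 ± 83.3 CPM with doxycycline, and Ccr3, not tested, at 0.266 ± 0.276 and 5.42 ± 4.28 CPM. Markers of macrophages and dendritic cells, 6 of 7 counted and C1qa at 0, summed to 57.8 to 87.0, 46.1 to 235 and 20.1 to 106 CPM in those groups. Markers of T and NK cells, 4 of 6 counted with Cd4 and Ncr1 at 0, summed to 83.3 to 164, 8.38 to 38.4 and 8.38 to 211 CPM, nearly all from Cd3g. Markers of B cells summed to at most 0.490 CPM, with Pax5 at 0, and those of erythroid cells, 4 of 4 matched and counted, to at most 8.25 CPM. Of 6 markers of stroma and endothelium, Col1a2, Dcn, Cdh5 and Kdr were at 0, and the sums of 86.5 to 168 CPM over all libraries came mainly from Pdgfrb. The part of these other markers in the receptor values was not tested.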

How the data were processed

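RNA of FACS-sorted cells was prepared with the QIAGEN RNeasy plus mini kit, per the labels' protocols. Each deposited file lists unnormalized read counts by Entrez gene, per the file headers. The submitters' processing notes name mm10, featureCounts, CASAVA 1.8.2, limma 3.22.0 and edgeR 3.8.2; the aligner, the annotation and the handling of strand and of multi-matching reads are not stated there, so reads of antisense or near-identical genes may be shared. Symbols came from the RefSeq table (GRCm38.p6), which matched 25275 entries and left 1904 unmatched.

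Counts were filtered with filterByExpr (12004 genes left), TMM-scaled and fitted with edgeR 4.0.16 (R 4.3.3, quasi-likelihood, 3 group means, 9 libraries), with Benjamini-Hochberg adjustment over all genes at 0.05; the fit was checked on simulated data. SE is the log2 fold change over the square root of F. Log2 CPM used a prior count of 2. Alternatives were other scaling and filters, DESeq2 1.42.0, limma 3.58.1 (voom), the clone as a block, 2 groups alone and libraries left out. Same-numbered samples are the same clone, and their deviations from group means correlated at 0.29 to 0.68. No pair of libraries agreed within sampling noise (lowest chi-square per degree of freedom 3.58).

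The members and lists were chosen with earlier results of these data known. Named genes were the receptors, Spi1, up to 4 called genes of smallest p per list, and the 3 closest profiles per receptor; relatives in the gene clusters and uncalled genes of the lists were added after their values were seen. Some listed genes are not reported here.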

Additional observations from a re-analysis of the deposited data

How the results depend on the processing

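The receptors' direction was the same under every alternative in both comparisons with doxycycline, and the calls varied with the clones in the fit. With doxycycline against untreated, 5 of 6 receptors were called, 2 without clone 2, 0 without clone 4 and 3 without the untreated clone 1 library, with 4 to 6 under the other settings; leaving out 1 clone each time gave 0 to 5. With washed against doxycycline, 5 were called, 2 without clone 2 and 1 without clone 4, with 4 to 6 otherwise. The clone as a replicate block gave 6 and 6, and, as alternatives chosen after seeing the data, 6, 5 and 4 with doxycycline and 6, 4 and 4 after the wash without clones 1, 2 and 4, and 6 and 6 without the untreated clone 1 library. Over all these settings the share of all genes called varied too, from 0% to 33.9% with doxycycline and from 0.0331% to 35.6% after the wash. In the main fit it was 10.9% and 9.66%. With all 9 libraries in the fit, the block changed no other call of a receptor than that of Cd300a. Cd300a also passed with doxycycline under library size alone (edgeR adjusted p = 0.0495), a filter of 5 CPM in 3 libraries (0.0491), DESeq2 (0.0145) and the 2 groups alone (0.0443). Pirb did not pass with limma voom (0.0601), and Lilrb4a and Cd33 did not without the untreated clone 1 library (0.0549 and 0.0544). Of the clone differences, 0 receptors passed by edgeR and 1 did under library size alone; over all genes 0 passed, but 74 did with RLE size factors, 1140 with library size alone and 1664 with no filter. Library size alone moved the median of all genes to 0.23 with doxycycline and 0.22 after the wash against untreated, and the share of calls that were higher from 60.2% to 75.6%.

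Between washed and untreated, 20 of the values changed sign, none of them called under any setting. Without scaling beyond library size the log2 fold change was 0.0947 for Sirpa, 0.0758 for Pirb and 0.0964 for Cd33. For Pirb it was 0.295 with voom and 0.368 without the untreated clone 1 library; leaving out 1 clone each time gave -0.736 to 0.253 (0.122 without clone 2), and with the block 0.277 without clone 1, 0.141 without clone 2 and 1.04 without the untreated clone 1 library. For Lilrb4a leaving out 1 clone each time gave -0.525 to 0.0532, and with the block 0.0659 without clone 1 and 0.0843 without the untreated clone 1 library. For Cd33 it gave -1.80 to 0.428 (0.181 without clone 2), with the block 0.199 without clone 2 and 0.221 without clone 4. For Cd300lf it gave -0.452 (-0.380 with the block), without clone 4, to 2.04, and for Cd300a the value was -0.000793 with the block and without the untreated clone 1 library. The cause was not tested. With 1 to 9 counts in the GFPhigh libraries, depth limits what can be said of Pirb and Cd300lf there, and of Cd33 with 0 to 5.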
